A study of Mus musculus with 6 samples.

Results

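*Syk*, the gene of spleen tyrosine kinase, and 8 genes that act around it in immune-receptor signalling were followed through 6 RNA-seq libraries of mouse kidney cells. The 9 genes, *Syk*, *Fcer1g*, *Tyrobp*, *Plcg2*, *Btk*, *Card9*, *Vav1*, *Lcp2* and *Lyn*, were chosen by symbol from the 55367 symbols in each library, and all 9 were found. The comparison asked whether *Syk* moved with genes of leukocytes when the kidney became cystic and when the animals were treated.

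Many receptors of myeloid cells, B cells, mast cells and platelets have no enzyme activity and signal through a short tyrosine motif, the ITAM, which lies in the receptor or in a partner such as FcRγ (*Fcer1g*) or DAP12 (*Tyrobp*). A Src-family kinase such as LYN phosphorylates the motif, SYK docks on it and becomes active, and adaptors (SLP-76, the product of *Lcp2*), exchange factors (*Vav1*), the kinase BTK and phospholipase Cγ2 (*Plcg2*) carry the signal to calcium, to CARD9 and to NF-κB. SYK is abundant in leukocytes and is also made by some epithelial cells, so its level in a kidney sample can come from more than 1 kind of cell.

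DBA, a plant lectin that binds collecting duct epithelium, was used to isolate cells from digested kidneys of male mice (labelled Day115), although the labels' protocol also speaks of RNA of the whole kidney. The 3 groups, each with 2 libraries, were WT mice given saline, ADPKD mice (genotype *Pkd1*-/-) given saline and ADPKD mice given MMPP, a melanin-like nanoparticle that chelates manganese, by vein. The ADPKD mice were of the *Pkd1* fl/fl;Cre/Esr1+ line, in which tamoxifen activates a Cre recombinase fused to a hormone receptor and so deletes *Pkd1*. The sources used here do not say whether each library came from its own animal, so p-values measure only the spread between these samples. Values were FPKM, fragments per kilobase of gene, scaled to the mapped fragments of the library.

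The ADPKD+MMPP libraries stood apart from the other 4 in depth and in how their values were made. FPKM multiplied by exon length fell on whole reads for 98.4% to 99.0% of low values (within 0.05 of a read), which gave 30.6 to 33.1 M reads in WT and ADPKD but 11.8 and 10.9 M in ADPKD+MMPP. Odd numbers of reads made up 35.2% to 37.2% of the whole values in the former libraries and 7.67% and 7.17% in the latter. In ADPKD+MMPP against ADPKD, the median log2 change of protein-coding genes ran from -1.61 where under 20% of a gene's exon bases lay in only 1 annotated transcript to 1.05 where over 80% did, whereas in ADPKD against WT the medians of these bins were between -0.02 and 0.06. Only ADPKD+MMPP libraries have this property, so the treatment and the way the values were made cannot be told apart, and log2 changes with MMPP are given as deposited and after centring every library within 20 bins of this exon share, while FPKM and their sums and ratios are as deposited. The collecting duct marker *Aqp2*, the water channel of principal cells, was high in all libraries (677 to 3555 FPKM), and the deleted gene *Pkd1* had 17.7 and 17.2 FPKM in WT, 7.64 and 8.91 in ADPKD, and 4.34 and 3.99 in ADPKD+MMPP.

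The promoters of *Syk* and *Vav1* are shown because *Vav1* had the profile nearest to *Syk* among the members, because *Syk* was followed in the study as a target of the transcription factor CREB, and because PU.1 is a regulator of myeloid genes. RefSeq windows of 250 bases before an annotated start (GRCm38.p6) were at hand for 7 of the 9 genes, 8 windows in all. Capitals mark GAGGAA, a core of PU.1 sites, read on both strands.
Syk, chr13:52596632-52596881, plus strand: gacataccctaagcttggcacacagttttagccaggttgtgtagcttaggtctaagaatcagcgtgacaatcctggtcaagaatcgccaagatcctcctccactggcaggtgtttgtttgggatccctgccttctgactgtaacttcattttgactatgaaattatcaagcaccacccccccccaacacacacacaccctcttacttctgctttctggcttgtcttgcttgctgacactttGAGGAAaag
Vav1, chr17:57278850-57279099, plus strand: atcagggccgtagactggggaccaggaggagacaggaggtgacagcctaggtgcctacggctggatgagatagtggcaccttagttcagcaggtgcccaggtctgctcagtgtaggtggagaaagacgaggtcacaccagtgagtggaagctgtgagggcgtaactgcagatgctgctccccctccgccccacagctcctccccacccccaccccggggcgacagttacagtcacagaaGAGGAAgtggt
The capital letters began 9 bases before the start in *Syk* and 11 bases before it in *Vav1*, and 23.3% of 32817 windows of this length held the same letters. Among the 8 windows of the members only the printed ones held them. Those of *Fcer1g*, *Plcg2*, *Btk*, *Card9* and *Lcp2* did not. In *Syk*, 29 of the 250 bases lay in an exon of another GENCODE transcript. The other *Syk* window, chr13:52583187-52583436, lay wholly in exon sequence by GENCODE, was 71.6% G or C with 27 CG pairs against 47.6% and 2 in the printed one, and held no GAGGAA. The full CRE, TGACGTCA, to which CREB binds, was in none of the 8 windows and in 1.55% of all windows. The shorter TGACG, which is part of the CRE, was found only in *Card9*, 36 bases before the start, and in 17.7% of all windows. These matches are descriptions of letters within 250 bases.

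*Syk* lay on chromosome 13 from 52583173 to 52648792 (GENCODE vM21, plus strand). It had 1.23 and 0.997 FPKM in WT, 4.28 and 7.16 in ADPKD, and 0.31 and 0.29 in ADPKD+MMPP, which correspond to 351, 289, 1325, 2150, 34 and 30 reads. Both ADPKD libraries were above both WT libraries and both ADPKD+MMPP libraries were below them, with no overlap between any groups. The mean of 5.72 ± 2.04 FPKM in ADPKD (SD, n = 2) was 5.15-fold that of 1.11 ± 0.16 in WT (SD, n = 2), and that of 0.301 ± 0.00982 in ADPKD+MMPP (SD, n = 2) was 19.0-fold below ADPKD. On the log2(FPKM + 1) scale, which understates the change of low genes, *Syk* rose by 1.64 ± 0.23 (SE) in ADPKD against WT (limma, Benjamini-Hochberg adjusted p = 0.00650 over 14862 genes). Without 1 WT library, replicate 2, this adjusted p was 0.0549 and the call by fold and unadjusted p was kept. With MMPP, against ADPKD, *Syk* fell by 2.34 ± 0.23 (SE, limma adjusted p = 0.000245), and after centring by exon share the change was -1.45 ± 0.24 (limma adjusted p = 0.00206). Against WT, its log2 change in ADPKD+MMPP was -0.70 ± 0.23 (SE, limma adjusted p = 0.0303) as deposited and 0.17 ± 0.24 after centring (limma adjusted p = 0.538), so the side of WT on which the treated libraries fell changed with the centring. In a bulk sample, more cells of a type and more RNA per cell cannot be told apart.

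**Figure D1:**
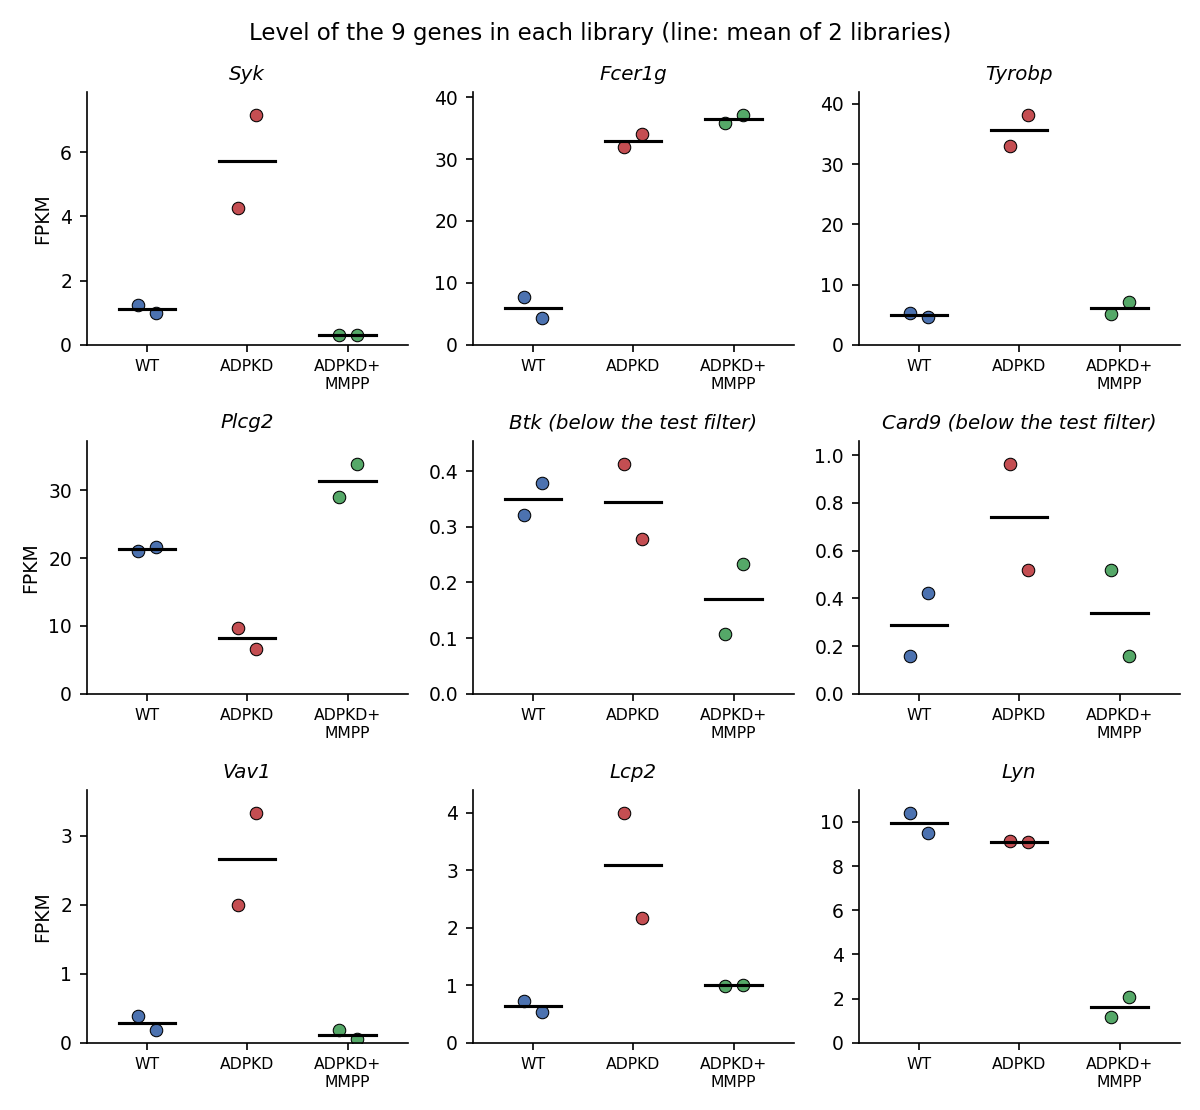
FPKM of the 9 genes (vertical axes, each from 0) in the 2 libraries of WT, ADPKD and ADPKD+MMPP (points, lines at the mean). *Syk*, *Tyrobp*, *Vav1* and *Lcp2* are high only in the ADPKD libraries, *Fcer1g* is high in ADPKD and ADPKD+MMPP, *Plcg2* is low in ADPKD, and *Lyn* is low in ADPKD+MMPP.

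The genes of the ITAM-bearing partner chains had the highest FPKM of the 9 in ADPKD, and both rose there. *Fcer1g* (chromosome 1 from 171229572 to 171234365, minus strand), the FcRγ chain of Fc receptors and several C-type lectins, had 7.67 and 4.29 FPKM in WT, 31.9 and 34.0 in ADPKD, and 35.9 and 37.1 in ADPKD+MMPP. *Tyrobp* (chromosome 7 from 30413760 to 30417585, plus strand), the DAP12 chain of TREM and other myeloid receptors, had 5.20 and 4.65 FPKM in WT, 33.1 and 38.2 in ADPKD, and 5.08 and 7.15 in ADPKD+MMPP. WT and ADPKD did not overlap for either gene, and the treated libraries were above ADPKD for *Fcer1g* while for *Tyrobp* they overlapped WT. The log2 change in ADPKD against WT was 2.33 ± 0.23 for *Fcer1g* and 2.63 ± 0.17 for *Tyrobp* (SE, limma adjusted p = 0.00329 and 0.00174). In ADPKD+MMPP against ADPKD, *Tyrobp* fell by 2.38 ± 0.17 (SE, limma adjusted p = 8.55e-05), a change of -0.44 after centring that did not reach 1.5-fold (limma adjusted p = 0.0685). For *Fcer1g* that comparison gave 0.14 ± 0.23 (SE, limma adjusted p = 0.590) as deposited and a rise of 1.87 ± 0.22 after centring (limma adjusted p = 0.000503). A common sum for all libraries gave -0.16 and quantile normalization gave -0.02 for *Fcer1g*. The share of exon bases in only 1 transcript was 26.7% in *Fcer1g* and 14.7% in *Tyrobp*.

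*Vav1* and *Lcp2* rose with *Syk* in ADPKD from levels near the lower end of what the libraries measured. *Vav1* (chromosome 17 from 57279100 to 57328031, plus strand), a guanine nucleotide exchange factor of blood cells that SYK phosphorylates, had 0.38 and 0.18 FPKM in WT, 1.99 and 3.33 in ADPKD, and 0.18 and 0.05 in ADPKD+MMPP. *Lcp2* (chromosome 11 from 34046920 to 34092295, plus strand), the adaptor SLP-76, had 0.73 and 0.53 FPKM in WT, 3.99 and 2.17 in ADPKD, and 0.99 and 1.01 in ADPKD+MMPP. The ADPKD libraries were the highest for both genes, *Vav1* in the treated libraries rested on 8 and 2 reads, and *Lcp2* in the treated libraries stayed above WT. In ADPKD against WT, *Vav1* rose by 1.49 ± 0.22 and *Lcp2* by 1.29 ± 0.24 on the log2 scale (SE, limma adjusted p = 0.00743 and 0.0136). Between ADPKD+MMPP and ADPKD, *Vav1* fell by 1.69 ± 0.22 (SE, limma adjusted p = 0.000789), and its change was -0.04 ± 0.22 after centring (limma adjusted p = 0.869). *Lcp2* fell by 0.99 ± 0.24 (SE, limma adjusted p = 0.00960) and its change was -0.65 after centring, which passed. Quantile normalization gave -0.37 for *Lcp2*, which did not pass.

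*Plcg2* went the other way. *Plcg2* (chromosome 8 from 117498291 to 117635142, plus strand), phospholipase Cγ2, which makes the messengers that release calcium, had 21.0 and 21.7 FPKM in WT, 9.69 and 6.62 in ADPKD, and 28.9 and 33.9 in ADPKD+MMPP. WT was 2.62-fold above ADPKD, and the treated libraries were the highest, with no overlap between groups. On the log2 scale *Plcg2* fell by 1.31 ± 0.18 in ADPKD against WT and rose by 1.84 ± 0.18 in ADPKD+MMPP against ADPKD (SE, limma adjusted p = 0.00665 and 0.000272), the latter by 0.68 after centring. It is the only one of the 9 with a single annotated transcript, so 100% of its exon bases lie in 1 transcript. Against WT, its change in the treated libraries was 0.53 as deposited, which did not reach 1.5-fold, and after centring it fell by 0.77. Markers of intercalated cells, the acid-base cells of the collecting duct, moved in the same directions: 7 of 7 fell in ADPKD, where 12.5% of all genes tested did, and 6 of 7 rose in ADPKD+MMPP against ADPKD, both as deposited and after centring, where 27.9% and 33.7% did. Their summed level was 274 and 290 FPKM in WT, 63.4 and 29.2 in ADPKD, and 184 and 194 in ADPKD+MMPP, and *Atp6v1g3*, a subunit of their proton pump, had 46.5 and 48.3 FPKM, then 10.7 and 4.64, then 34.6 and 39.9. Tuft cells, which express *Plcg2* in other epithelia, gave 2 tested markers of 5, of which 1 fell in ADPKD, and *Trpm5*, their ion channel, was between 0.307 and 0.788 FPKM in WT and ADPKD and listed at 0 in ADPKD+MMPP. Other lists shared part of the directions of *Plcg2*. In ADPKD, 5 of 6 endothelial markers fell and 1 rose, and 3 of 5 distal markers fell and 0 rose. In ADPKD+MMPP against ADPKD, 7 of 8 proximal, 4 of 6 principal-cell and 2 of 5 distal markers rose, while 0, 1 and 1 fell. After centring, these rises became 8, 1 and 4, with 0 falls. Endothelial markers gave 0 rises and 3 falls in that comparison as deposited. The part of these cell types in the level of *Plcg2* was not tested.

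*Lyn*, *Btk* and *Card9* gave no rise in ADPKD that passed the test. *Lyn* (chromosome 4 from 3678115 to 3813122, plus strand), the Src-family kinase upstream of SYK, had 10.4 and 9.51 FPKM in WT, 9.12 and 9.08 in ADPKD, and 1.16 and 2.07 in ADPKD+MMPP. WT and ADPKD lay close together, with a log2 change of -0.12 ± 0.19 (SE, limma adjusted p = 0.672) that was 0.03 after centring, and the treated libraries were lowest. Relative to ADPKD, in ADPKD+MMPP *Lyn* fell by 1.97 ± 0.19 (SE, limma adjusted p = 0.000221) as deposited, and its change was -0.19 ± 0.19 after centring (limma adjusted p = 0.404). *Lyn* had 15.3% of its exon bases in 1 transcript, in the bin whose median was -1.61. *Btk* (chromosome X from 134542336 to 134583570, minus strand), the Tec kinase of B cells and myeloid cells, had 0.32 and 0.38 FPKM in WT, 0.41 and 0.28 in ADPKD, and 0.11 and 0.23 in ADPKD+MMPP. *Card9* (chromosome 2 from 26352176 to 26360918, minus strand), the myeloid scaffold that leads to NF-κB, had 0.16 and 0.42 FPKM in WT, 0.96 and 0.52 in ADPKD, and 0.52 and 0.16 in ADPKD+MMPP. Neither reached 1 FPKM in any library, so neither was tested. *Btk* had 4 to 43 reads and *Card9* 4 to 73, with a wide spread between replicates. WT and ADPKD overlapped for *Btk*, and for *Card9* the ADPKD libraries were above WT by as little as 0.52 against 0.42. Fitted without the filter, the log2 change in ADPKD against WT was -0.01 ± 0.10 for *Btk* and 0.43 ± 0.22 for *Card9* (SE, limma adjusted p = 0.990 and 0.320).

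Of the 9 genes, 7 passed the filter of 1 FPKM in 2 libraries, and of these 5 rose and 1 fell in ADPKD against WT, where 14.2% of all 14862 genes tested rose and 12.5% fell (fold of at least 1.5 and unadjusted p under 0.05). In ADPKD+MMPP against ADPKD, 5 of the 7 fell and 1 rose, where 43.0% of all genes tested fell and 27.9% rose. After centring, 2 fell (*Syk* and *Lcp2*) and 2 rose (*Fcer1g* and *Plcg2*), where 24.5% and 33.7% of 12374 protein-coding genes did. The median change of the 7 in that comparison was -1.69 as deposited and -0.19 after centring, beside -0.36 and 0.15 over all genes tested. In ADPKD+MMPP against WT, *Fcer1g* rose by 2.47 and *Syk* and *Lyn* fell (-0.70 and -2.09), where 30.1% of all genes tested rose and 43.8% fell. After centring, 3 of the 7 rose in that comparison (*Fcer1g*, *Tyrobp* and *Vav1*) and 1, *Plcg2*, fell, where 35.8% and 26.8% of protein-coding genes did, and neither *Syk* nor *Lyn* passed. ADPKD against WT and ADPKD+MMPP against ADPKD share the ADPKD libraries, so a rise in the former and a fall in the latter are not independent.

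**Figure D2:**
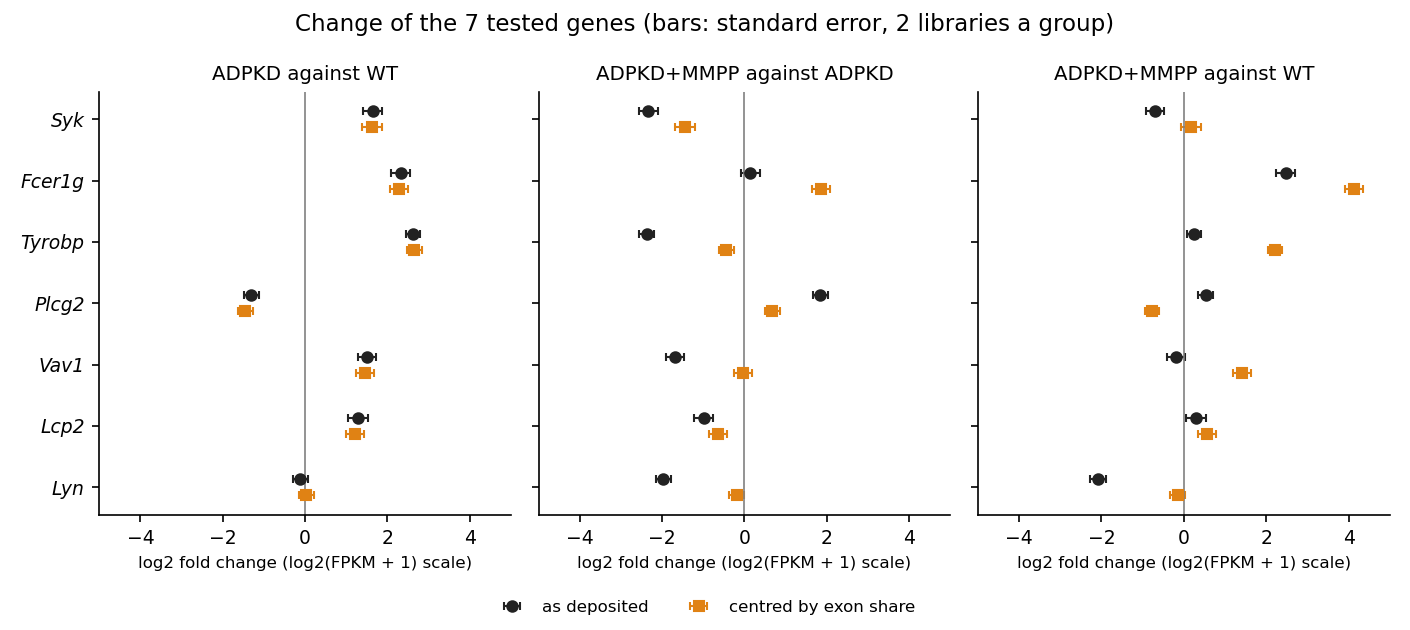
Log2 fold change on the log2(FPKM + 1) scale (horizontal axes) of the 7 tested genes in the 3 comparisons, as deposited (circles) and after centring by exon share (squares), with bars of 1 SE from limma. The values in ADPKD against WT differ little between the scales, whereas in ADPKD+MMPP against ADPKD *Tyrobp*, *Vav1* and *Lyn* lie between -2.38 and -1.69 as deposited and between -0.44 and -0.04 after centring.

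The other genes of the pathway, 92 by list, gave 67 that were tested in ADPKD against WT, of which 33 rose and 8 fell, with a median log2 change of 0.63 beside 0.03 over all genes tested. Of all genes tested, 14.2% rose and 12.5% fell. Of the receptors, 11 of 14 tested rose and 1 fell (median 1.24). *Fcgr3*, a low-affinity Fc receptor that signals through FcRγ, rose by 2.90 ± 0.45, from 0.904 and 0.819 FPKM in WT to 7.38 and 22.2 in ADPKD. *Clec4d*, a myeloid lectin of the same kind, rose by 2.89 ± 0.77, and its ADPKD libraries were far apart at 3.76 and 25.3 FPKM. *Fcgr4*, a further activating Fc receptor, rose by 1.15 ± 0.28 (SE, limma adjusted p for the 3 genes in this order 0.00877, 0.0416 and 0.0315). Of the receptor genes, *Cd79a*, a signalling chain of the B-cell receptor, named here after its value was seen, fell.

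Among the other kinases 3 of 8 rose and 1 fell (median -0.07), where 14.2% of all genes tested rose and 12.5% fell. *Src*, made by many cell types, rose by 1.66 ± 0.18 from 6.56 and 6.43 FPKM to 19.1 and 26.8, *Fyn*, another Src-family kinase, fell by 0.93 ± 0.11, and *Csk*, which switches Src-family kinases off, changed by -0.19 ± 0.13. The 10 tested adaptors gave 3 rises and 1 fall (median 0.26), and the most abundant of them, *Grb2* and *Blnk*, had changes of 0.23 and 0.04, while *Gab2* fell by 0.70. Effectors gave 8 rises and 2 falls of 17 (median 0.65): *Prkcd*, a protein kinase C that acts between SYK and CARD9, rose by 0.65 from 22.9 and 22.9 FPKM to 35.5 and 37.5, *Bcl10*, the partner of CARD9, changed by 0.18, and *Rasgrp3*, which activates Ras, fell by 1.67. Inhibitors gave 8 rises and 3 falls of 18 (median 0.57), and their 3 most abundant genes, *Tnfaip3*, *Cbl* and *Sirpa*, had changes of -0.40, -0.21 and -0.30, none of which passed.

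**Figure D3:**
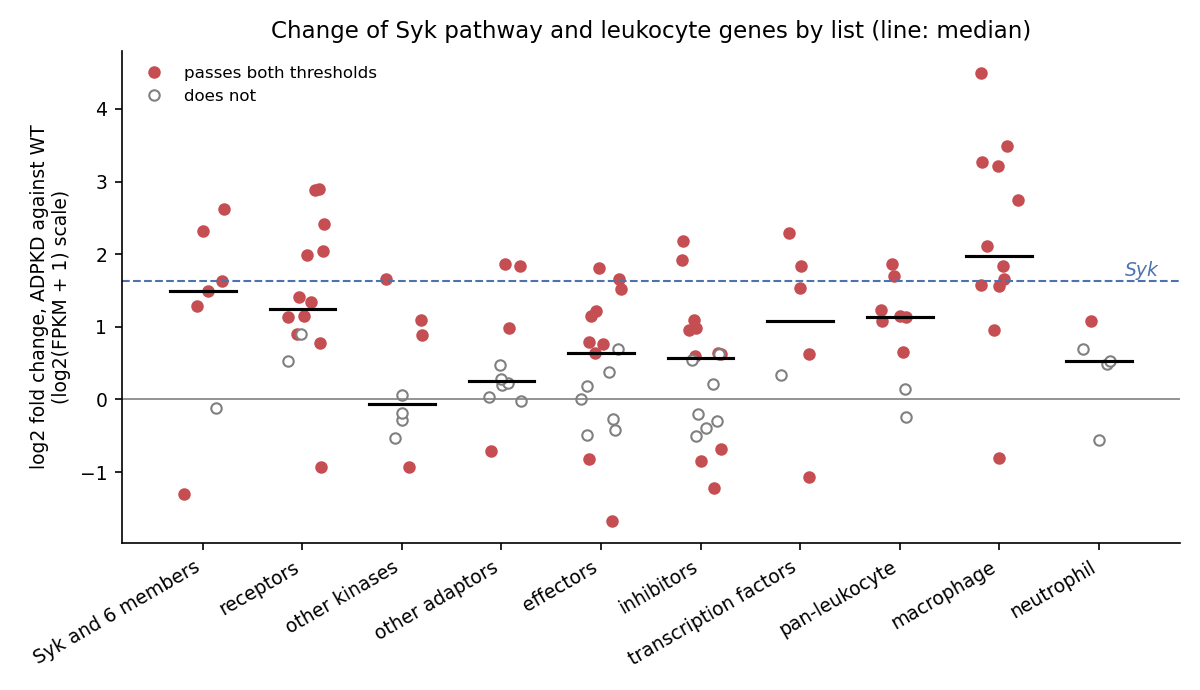
Log2 fold change in ADPKD against WT (vertical axis, log2(FPKM + 1) scale) of each tested gene of the members, the pathway lists and the leukocyte lists, filled where it passed both thresholds, with lines at list medians and a dashed line at *Syk*. Receptors, pan-leukocyte and macrophage markers lie mostly above 0, with medians of 1.24, 1.14 and 1.97, and *Syk* at 1.64 is within their range.

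Most pan-leukocyte and macrophage markers rose with *Syk* in ADPKD. Of the pan-leukocyte markers 7 of 9 tested rose and 0 fell (median 1.14), and of the macrophage markers 11 of 12 rose and 1, the mannose receptor *Mrc1*, fell (median 1.97). Over all genes tested in this comparison, 14.2% rose and 12.5% fell. *Ptprc*, the leukocyte surface phosphatase CD45, had 0.930 and 0.601 FPKM in WT, 3.26 and 2.23 in ADPKD, and 0.31 and 0.50 in ADPKD+MMPP. *Lyz2*, lysozyme of macrophages and neutrophils, had 7.63 and 8.69 FPKM in WT, 188 and 224 in ADPKD, and 568 and 565 in ADPKD+MMPP. These 2 genes thus rose together in ADPKD, by 1.08 ± 0.20 and 4.49 ± 0.13 (SE, limma adjusted p = 0.0137 and 0.000205), and moved apart in the treated libraries. *C1qa*, a complement gene of macrophages, and *Cd14*, a coreceptor for bacterial lipid, rose by 3.21 and 1.84, *Adgre1* (F4/80) by 2.11, and among the highest pan-leukocyte genes *Arhgdib* rose by 1.14 and *Cd52* by 1.71, whereas *Cd53* had a change of -0.25. Of the myeloid transcription factors 4 of 6 tested rose: *Spi1*, which encodes PU.1, had 1.26 and 1.25 FPKM in WT, 8.73 and 11.5 in ADPKD, and 11.8 and 14.9 in ADPKD+MMPP, and *Irf8* had a change of 0.34. *Syk* was within the range of these markers: of 21 tested pan-leukocyte and macrophage markers, 10 had a larger log2 change than *Syk* in ADPKD against WT and 11 a smaller one.

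Markers of lymphocytes, dendritic cells and mast cells were mostly low and did not move in a single direction. For the counts that follow, 14.2% of all genes tested rose and 12.5% fell in ADPKD against WT. Of the B-cell markers 3 of 7 were tested, and 0 rose and 2 fell in ADPKD against WT, *Ebf1* (-1.47) and *Cd79a* (-0.93), with a summed level of 19.0 and 13.7 FPKM in WT and 9.27 and 5.19 in ADPKD. *Cd3e* of T cells was at most 0.270 FPKM, *Ncr1* of natural killer cells and *Cpa3* of mast cells at most 0.0852, and *Flt3* of dendritic cells at most 0.165, and no natural killer marker was tested. Above 1 FPKM, *Ms4a2*, the β chain of the mast-cell IgE receptor, rose by 0.78, from 0.0698 and 0.184 FPKM in WT to 1.09 and 0.787 in ADPKD, while *Hdc*, the other tested mast-cell marker, fell (-0.93). *Cd4* was the 1 of 8 T-cell markers tested and rose by 0.85. The 3 tested dendritic markers, *Itgax*, *Clec9a* and *Zbtb46*, had changes of 1.10, -1.24 and -0.44, of which the first 2 passed. The genes of these lists above 1 FPKM were named after their values were seen. The neutrophil genes *S100a9*, *S100a8* and *Ltf* had changes of 0.49, 0.69 and -0.56 in ADPKD against WT, none of which passed, with 1 of 5 tested neutrophil markers higher. *Pf4*, a platelet chemokine also made by macrophages, rose by 3.55 and was the only 1 of 5 platelet markers to do so. In other cells of the kidney, *Col1a1* of fibroblasts rose by 4.62, with 3 of 5 fibroblast markers higher and 1 lower. *Pecam1* of endothelium fell (-0.99), with 5 of 6 endothelial markers lower. *Slc34a1* of the proximal tubule and *Umod* of the thick limb had changes of -1.36 and -1.03 that did not pass. Of the proximal markers 2 of 8 rose and 1 fell, and of the distal markers 3 of 5 fell. Summed proximal FPKM was 126 and 51.3 in WT, 88.1 and 15.7 in ADPKD, and 580 and 584 in ADPKD+MMPP. The erythroid gene *Hba-a1* had a change of -0.72. The part of these cell types in the level of *Syk* was not tested.

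The ratio of *Syk* to leukocyte genes depended on which of them stood for leukocytes. As a share of summed pan-leukocyte FPKM, *Syk* was 2.20% and 2.35% in WT, 4.15% and 8.06% in ADPKD, and 0.314% and 0.335% in ADPKD+MMPP. The share was 2.68-fold higher in ADPKD than in WT, with no overlap. As a share of summed macrophage FPKM it was 0.909% and 0.845% in WT, 0.653% and 0.844% in ADPKD, and 0.0219% and 0.0202% in ADPKD+MMPP, so the ADPKD mean was 0.854 of that in WT, with the nearest libraries at 0.845% and 0.844%. In the treated libraries most of the macrophage sum, 1184 and 1232 of 1404 and 1453 FPKM, came from markers with an exon share over 80%. As a percentage of *Ptprc* FPKM it was 132% and 166% in WT, 131% and 321% in ADPKD, and 97.8% and 58.7% in ADPKD+MMPP, where WT and ADPKD overlapped. With 2 libraries a group, an exact permutation test cannot go below a two-sided p of 0.333, so these ratios are values without a test.

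**Figure D4:**
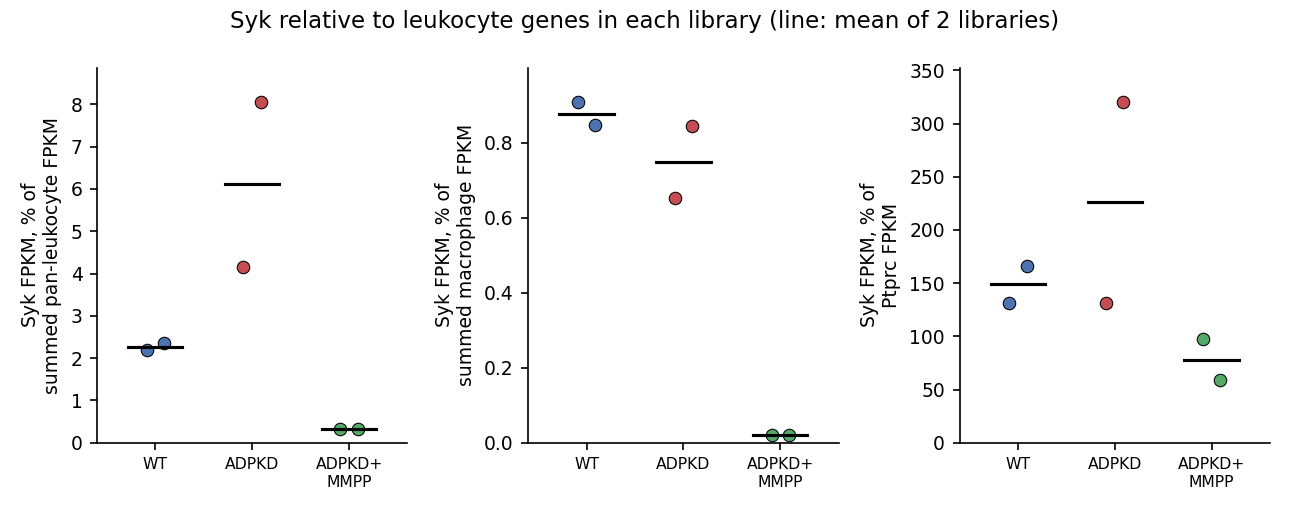
*Syk* FPKM as a percentage of summed pan-leukocyte FPKM, summed macrophage FPKM and *Ptprc* FPKM (vertical axes from 0) in the 2 libraries of each group (points, lines at the mean). Both ADPKD libraries lie above WT only for the pan-leukocyte sum, and the ADPKD+MMPP libraries are the lowest in all 3 panels.

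The ADPKD libraries, which were replicates of 1 group, differed in *Syk* by 4.28 against 7.16 FPKM, and leukocyte genes did not differ in a single direction between them. *Vav1*, *Fcer1g* and *Tyrobp* were higher in the library with more *Syk*, ADPKD replicate 2, as were 9 of 12 macrophage markers, 5 of 5 neutrophil markers and 6 of 6 myeloid factors. *Lcp2* was higher in replicate 1 (3.99 against 2.17 FPKM), as were 7 of 9 pan-leukocyte markers, *Ptprc* among them. Tested markers of other cells also differed between these libraries. In replicate 2, 5 of 5 platelet markers were higher, and 6 of 6 principal-cell, 8 of 8 proximal and 5 of 5 distal markers were lower. The share of all genes tested that was higher in replicate 2 was not computed, so these counts have no background beside them. The neutrophil sum was 3.27 and 18.4 FPKM in replicates 1 and 2, against 6.62 and 4.08 in WT, while *Aqp2* was 1392 and 677. Without ADPKD replicate 1 the log2 change of *Syk* against WT was 1.95, and without replicate 2 it was 1.32, both past the threshold.

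In the MMPP-treated libraries *Syk* and the leukocyte genes did not move as 1 group. Summed macrophage FPKM went from 655 and 848 in ADPKD to 1404 and 1453, summed pan-leukocyte FPKM from 103 and 88.8 to 97.9 and 87.7, and *Syk* from 4.28 and 7.16 to 0.31 and 0.29. The 6 macrophage markers with over 80% of their exon bases in 1 transcript went from 477 and 584 to 1184 and 1232 in sum. The other 7 went from 178 and 264 to 220 and 222. Of the macrophage markers 5 rose and 5 fell, and of the pan-leukocyte markers 2 rose and 2 fell, with medians of 0.28 and -0.24. After centring, these were 3 rises and 3 falls and 2 rises and 2 falls, with medians of -0.10 and 0.26. Among all genes tested 27.9% rose and 43.0% fell in this comparison as deposited. After centring, 33.7% of protein-coding genes rose and 24.5% fell. *Lyz2* rose by 1.46, *C1qa* rose to 241 and 271 FPKM, and *Fcgr4*, *Cd52* and *S100a8* rose by 1.29, 1.20 and 1.44. The falls included -4.09 for *Csf1r*, the macrophage growth factor receptor, -1.40 for *Ptprc*, -1.29 for *Adgre1* and -0.84 for *Arhgdib*. After centring, *Csf1r*, *Ptprc* and *S100a8* still passed in the same direction (-2.71, -0.74 and 1.78), *Adgre1* rose (0.82), and *Lyz2*, *C1qa*, *Fcgr4*, *Cd52* and *Arhgdib* did not pass (0.30, -0.16, 0.13, 0.13 and 0.54). *Spi1*, *Cd14*, *Pf4* and *Fcgr3* had changes of 0.37, 0.56, -0.19 and -0.99 that did not pass. After centring, *Cd14* and *Pf4* rose (1.23 and 1.53), and *Spi1* and *Fcgr3* had changes of -0.05 and 0.66 that did not pass. Of the 6 tested myeloid transcription factors 0 rose and 3 fell as deposited, and 0 rose and 4 fell after centring (medians -0.45 and -0.77). Of 21 tested pan-leukocyte and macrophage markers, 20 had a higher log2 change than *Syk* and 1, *Csf1r*, a lower one. After centring these counts were 19 and 2.

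The direction in these libraries followed the exon share. The 6 tested macrophage markers with over 80% of their exon bases in 1 transcript gave 5 rises and 0 falls (median 1.01), and the other 6 gave 0 rises and 5 falls (median -1.19). After centring, the medians were -0.15 and 0.55. The pathway lists gave 8 rises and 40 falls of 67 as deposited (median -0.87) and 21 rises and 22 falls of 66 after centring (median 0.09). All genes tested gave 27.9% rises and 43.0% falls as deposited, and protein-coding genes gave 33.7% and 24.5% after centring. Several of their most abundant genes fell on both scales, as deposited and after centring. The changes were -4.42 and -2.31 for *Grb2*, -4.73 and -3.55 for *Tnfaip3*, an inhibitor of NF-κB, -4.32 and -2.39 for *Src*, and -1.63 and -1.65 for *Blnk*. *Csk* fell by 0.59 as deposited and rose by 0.79 after centring, and *Bcl10* rose by 0.83 and then had a change of -0.24. *Syk*, with 44.6% of exon bases in 1 transcript, fell by 2.34 where the median of its bin, 40% to 60%, was -0.55. *Itgam*, *Nfatc1* and *Ncf1*, named after their values were seen, were listed at 0 in both treated libraries. Mitochondrial genes were also at 0 in the files, so a 0 may be a missing estimate.

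**Figure D5:**
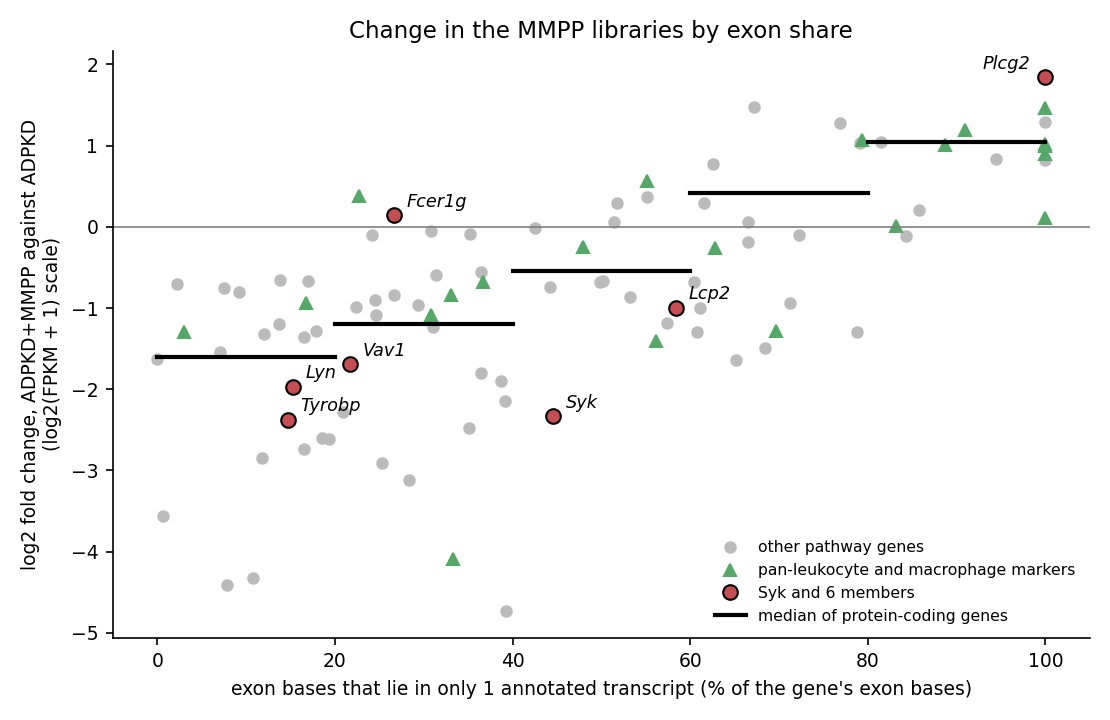
Log2 fold change in ADPKD+MMPP against ADPKD (vertical axis, log2(FPKM + 1) scale) by the percentage of exon bases that lie in only 1 annotated transcript (horizontal axis), for the 7 tested members (large circles), other pathway genes (grey) and pan-leukocyte and macrophage markers (triangles), with lines at the medians of protein-coding genes in bins of 20%. *Syk* lies below the median of its bin (-2.34 against -0.55) and *Fcer1g* above that of its bin (0.14 against -1.20).

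The profile of *Syk* over the 6 libraries, each gene's log2(FPKM + 1) centred on its own mean, was nearest to those of *Slc7a2*, *Ptpre*, *Gm26175*, *Agrn* and *Lhfpl2*, with root mean square differences of 0.106, 0.112, 0.112, 0.128 and 0.141. Only *Lhfpl2* was among the 5 nearest with a pseudocount of 0.1. *Gm26175* is a predicted gene, *Slc7a2* is a cationic amino acid transporter and *Agrn* encodes a basement membrane proteoglycan. *Ptpre* and *Lhfpl2* are not described here, and which cells expressed these 5 genes was not tested. The nearest genes of the leukocyte lists were *Irf5*, a myeloid transcription factor, at 0.232 and rank 30 of 14861, *Ptprc* at 0.489 and rank 464, and *Csf3r*, the granulocyte growth factor receptor, at 0.494 and rank 485. Among the 100 nearest of these 14861 genes was 1 of the 41 tested leukocyte list genes. These lists leave out the members, of which *Vav1* was also among the 100. *Vav1* was the nearest of the other members at rank 67, followed by *Tyrobp* at 465, *Lcp2* at 1889 and *Lyn* at 3482, with *Fcer1g* at 11155 and *Plcg2* at 13950 far from it. The distance rests on 6 points in 3 groups and on libraries that stand apart, and is a description. *Myc*, *Abcg1* and *Clcf1*, which the study followed with *Syk* as CREB targets, rose by 1.32, 1.73 and 1.52 in ADPKD against WT. They fell in ADPKD+MMPP against ADPKD (-5.33, -1.13 and -1.06), the last of which became -0.42 and did not pass after centring. The study also measured *Syk* and these genes by RT-PCR in primary renal epithelial cells, apart from the FPKM used here. It reported a rise in ADPKD that MMPP inhibited.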

How the data were processed

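RNA of DBA-positive kidney cells was measured in 6 libraries of 3 groups. The authors sequenced on an Illumina NovaSeq, aligned reads to GRCm38/mm10 with HISAT2 (2.1.0), counted them on genes with featureCounts (1.6.0), tested counts with DESeq2 and deposited FPKM for each library. The annotation release and the step from counts to FPKM are not given in the sources used here. As FPKM are not counts, log2(FPKM + 1) was fitted with limma (3.58.1, R 4.3.3, trended prior) over the 14862 genes that reached an FPKM of 1 in 2 or more libraries, in 1 fit of 3 groups without covariates. A gene rose or fell at a fold change of at least 1.5 and an unadjusted p under 0.05, the study's thresholds, with Benjamini-Hochberg adjusted p beside it. Reads and exon shares used GENCODE vM21 (53253 symbols matched), and centring subtracted, in each library, the median of each of 20 bins of exon share. The steps were tested on simulated data, in which low gene levels were raised to a floor and the spread was capped. The levels of *Syk*, *Vav1* and *Lcp2* in WT were below that floor, so the simulation did not cover genes that low.

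Members, lists and tests were chosen with earlier results of these data known. Named genes were the members, the 3 most abundant genes of each pathway, factor, pan-leukocyte, macrophage and neutrophil list, the first marker of each other cell type, the 5 tested and 3 leukocyte genes nearest to *Syk*, *Pkd1*, and *Myc*, *Abcg1* and *Clcf1*. Others were named after their values were seen. Alternatives changed the pseudocount, filter, scaling, trend, groups in the fit, thresholds and replicate block, or left out 1 library. The 2 libraries of each group differed by more than counting noise (mean chi-square per gene 4.15 to 82.2).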

Additional observations from a re-analysis of the deposited data

How the results depend on the processing

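With 2 libraries a group, the spread between libraries limits the precision, and *Vav1*, *Btk* and *Card9* also rest on few reads. In ADPKD against WT, the *Syk* call was kept under all 18 alternatives in which *Syk* was tested. Values ran from 1.32 to 2.23, and from 1.32 to 1.95 when 1 library was left out. In ADPKD+MMPP against ADPKD the call was also kept under all 18, from -3.82 to -1.45, and from -2.65 to -2.02 without 1 library. The *Syk* change in ADPKD+MMPP against WT did not hold: it was -0.0122 with quantile normalization and 0.17 after centring by exon share, -0.70 missed a fold of 2, and it lay between -0.78 and -0.62 without 1 library, no longer passing without either WT or either ADPKD+MMPP library (-0.62, -0.78, -0.70 and -0.69). The cause was not tested.

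With a filter of FPKM 5, which left 4 members and removed *Syk*, 3 were called in each of ADPKD against WT and ADPKD+MMPP against ADPKD, in place of 6. Relative to the macrophage sum the *Syk* fold in ADPKD against WT turned from 2.68 to 0.854, and that in ADPKD+MMPP against ADPKD was 0.0531, 0.0281 relative to the macrophage sum and 0.346 relative to *Ptprc*. Other directions turned for *Lyn* in ADPKD against WT (0.0345 after centring), for *Fcer1g* in ADPKD+MMPP against ADPKD (-0.16 with a common sum, -0.0209 with quantile normalization), and in ADPKD+MMPP against WT for *Tyrobp* (-0.0838 with a common sum), *Vav1* (0.34 with quantile normalization, 1.41 after centring) and *Plcg2* (-0.77 after centring). In that comparison *Plcg2* also passed with TMM factors (0.83) and without ADPKD+MMPP replicate 1 (0.64), *Tyrobp* and *Lcp2* with quantile normalization (0.72 and 0.90), *Tyrobp* after centring (2.21), and *Lyn* no longer after it (-0.15). The scalings moved the median of all genes in ADPKD+MMPP against ADPKD from -0.36 to -0.55 (common sum), -0.14 (TMM) and 0.10 (quantile).

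Replicate numbers did not pair the samples. Deviations of same-numbered libraries correlated at 0.129, 0.0137 and -0.00796 in ADPKD against WT, ADPKD+MMPP against ADPKD and ADPKD+MMPP against WT, with 2 pairs each. With the replicate number as a block, *Syk* had changes of 1.64, -2.34 and -0.70 (limma unadjusted p = 0.000923, 0.000175 and 0.0309), and the member calls were 6, 6 and 3, as without it.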
